A study of Mus musculus with 19 samples.

Results

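The 10 genes described here were listed as genes of white adipocyte identity and of the lipid droplet. Some are also known outside fat, and Plin4 did not follow Adipoq in these mice. Adipoq, Cfd, Retn and Lep encode secreted proteins, Plin1, Cidec and Plin4 encode lipid droplet proteins, Lpl and Fabp4 handle fatty acids, and Pparg is their regulator. They were taken as the genes of these names in a table of 20408 genes measured by RNA-Seq in the suprarenal abdominal aorta (SRA) of 19 mice. A gene was tested where 4 or more of the 19 mice reached 10 normalized counts, which held for 14845 genes and for 9 of the 10. Of these 9, Retn reached it in 18 mice and the others in all 19. Lep reached it in 3 mice and was not tested. A normalized count is the reads of a gene in a mouse divided by the size factor of that library.

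All mice were male, 8 weeks old by the labels, on a C57BL/6J background, deficient in ApoE (ApoE-/-) and fed regular chow. All carried SMA-CreERT2, a tamoxifen-inducible Cre recombinase under the smooth muscle actin promoter. Per the methods of the study, both genotypes were injected with tamoxifen on 5 consecutive days from 8 weeks of age. Infusion followed after a period of rest, so the mice were older than 8 weeks when infused. In IKKβ-/- mice both alleles of Ikbkb, which encodes the kinase IKKβ, were floxed, and IKKβ+/+ mice were the controls. The promoter acts in smooth muscle, so that adipocytes are not the cells in which deletion was directed. Mice were infused subcutaneously by osmotic pump for 24 h with saline (5 IKKβ+/+ and 4 IKKβ-/- mice) or with Ang II, for which the labels give 500 to 1000 ng/min/kg and the methods of the study 1000 ng/min/kg (5 mice of each genotype). Each library is 1 mouse. Mouse numbers run in a separate block for each group, so a processing batch that followed those blocks cannot be told apart from the groups. The libraries held 11382573 to 19906694 reads on genes. Ikbkb, measured in whole aorta, was at 673 ± 78.6 normalized counts in saline-infused and 726 ± 46.3 in Ang II-treated IKKβ+/+ mice, against 515 ± 74.3 and 548 ± 87.9 in the corresponding IKKβ-/- groups (mean ± SD).

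White adipocytes store triglyceride in a single large lipid droplet, whose surface is coated by perilipins and enlarged by the fusion protein CIDEC. The nuclear receptor PPARγ, encoded by Pparg, is the master regulator of adipocyte differentiation and drives many genes of lipid uptake and storage. Around the aorta, adipocytes lie in the perivascular fat outside the adventitia, and the methods of the study state that this fat was removed in dissection. The amount of fat on each piece of tissue was not measured. Some of the 10 genes are known outside fat: Lpl in muscle and macrophages, Fabp4 in capillary endothelium and macrophages, Pparg in macrophages and endothelium, and Plin4 in muscle.

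Coordinates are those of GRCm38, and the values below are counts over the exons of each gene. Adipoq (ENSMUSG00000022878.5) is at chr16:23146536-23158028, Cfd (ENSMUSG00000061780.6) at chr10:79890853-79892655, Retn (ENSMUSG00000012705.16) at chr8:3655770-3660110, Lep (ENSMUSG00000059201.12) at chr6:29060220-29073877 and Lpl (ENSMUSG00000015568.16) at chr8:68880491-68907448, all on the plus strand. Pparg (ENSMUSG00000000440.12) is at chr6:115360951-115490399, also on the plus strand. Cidec (ENSMUSG00000030278.11) is at chr6:113424634-113435760, Plin1 (ENSMUSG00000030546.14) at chr7:79720218-79732903, Plin4 (ENSMUSG00000002831.14) at chr17:56100591-56109803 and Fabp4 (ENSMUSG00000062515.3) at chr3:10204088-10208576, on the minus strand.

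The 250 bases before the annotated RefSeq start (GRCm38.p6) are shown for the adipokine Adipoq and the 3 lipid droplet genes, because Adipoq, Cidec and Plin1 moved together from mouse to mouse in the data below while Plin4 did not. They are written 5′ to 3′ on the strand of the gene, and capitals mark matches to the motifs CCAAT and TTGCNNAA (the core bound by C/EBP factors) on either strand. Cidec has 2 annotated starts. The window shown lies before the start inside the gene, and the window before the outer start (chr6:113435761-113436010), not printed, held none of the motifs searched.
Adipoq, chr16:23146286-23146535, plus strand: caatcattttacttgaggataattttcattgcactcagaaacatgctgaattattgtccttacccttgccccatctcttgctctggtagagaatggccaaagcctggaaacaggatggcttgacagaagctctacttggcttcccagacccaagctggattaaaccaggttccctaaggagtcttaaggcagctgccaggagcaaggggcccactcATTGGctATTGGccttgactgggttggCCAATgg
Cidec, chr6:113434765-113435014, minus strand: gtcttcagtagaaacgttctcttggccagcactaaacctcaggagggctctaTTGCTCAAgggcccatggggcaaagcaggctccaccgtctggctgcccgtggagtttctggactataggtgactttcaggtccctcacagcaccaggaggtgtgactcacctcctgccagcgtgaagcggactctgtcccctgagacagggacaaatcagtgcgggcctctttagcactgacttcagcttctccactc
Plin1, chr7:79732777-79733026, minus strand: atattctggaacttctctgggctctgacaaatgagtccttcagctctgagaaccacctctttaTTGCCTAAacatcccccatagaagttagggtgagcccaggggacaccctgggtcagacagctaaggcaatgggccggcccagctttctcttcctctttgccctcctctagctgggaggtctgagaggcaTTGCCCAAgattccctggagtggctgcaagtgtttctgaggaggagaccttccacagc
Plin4, chr17:56109783-56110032, minus strand: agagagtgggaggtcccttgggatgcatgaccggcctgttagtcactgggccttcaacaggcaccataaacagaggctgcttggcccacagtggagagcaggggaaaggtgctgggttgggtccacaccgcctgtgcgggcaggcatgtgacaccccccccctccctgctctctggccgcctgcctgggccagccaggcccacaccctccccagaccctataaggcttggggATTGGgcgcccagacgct
Windows were found for 8 of the 10 genes (11 windows), and Lpl and Fabp4 had no entry. The Adipoq window held CCAAT 3 times, at 34, 27 and 7 bases before the start, and the Plin4 window held it once, at 18 bases. The C/EBP core was present in the Plin1 window at 187 and 58 bases and in the Cidec window at 198 bases before the start. Over all 32851 windows of the same length, 33.9% held CCAAT, 9.56% TTGCNNAA, 14.0% AGGTCA (a nuclear receptor half-site), 12.4% TATAAA and 0.0335% a direct repeat of AGGTCA with 1 base between. Among the 11 windows, CCAAT was in 4, TTGCNNAA in 4, AGGTCA in 2 and TATAAA in 1, and no direct repeat was found. Motifs other than CCAAT and TTGCNNAA were absent as letters from the 4 windows printed. These matches describe letters and not bound sites.

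Levels are compared between genes only per kilobase of the principal transcript. Averaged over all 19 mice, Fabp4 was the most abundant at 4589 normalized counts per kb, followed by Cfd at 2923, Lpl at 751, Plin4 at 700.1, Adipoq at 506, Cidec at 344, Retn at 185, Plin1 at 136, Pparg at 49.5 and Lep at 2.19. In saline-infused IKKβ+/+ mice alone, the spread between mice was wide for the adipocyte genes, with Adipoq at 283 ± 300 (SD, n = 5) normalized counts per kb and Fabp4 at 3080 ± 2086. Plin4 was at 659 ± 94.7 per kb in the same mice. Neighbours in this order, such as Lpl and Plin4, or Adipoq and Cidec, were closer than the SD between mice. The order also depended on the group: by the medians over all mice Plin4 (685 per kb) was above Lpl (498), and in saline-infused IKKβ-/- mice the means were 694 for Plin4, 403 for Lpl and 185 for Cfd. The mouse with the highest level exceeded the lowest 193-fold for Adipoq, 194-fold for Cfd, 152-fold for Retn, 253-fold for Cidec and 165-fold for Plin1. The range was 17.7-fold for Lpl, 19.1-fold for Fabp4, 10.6-fold for Pparg and 1.80-fold for Plin4.

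**Figure D1:**
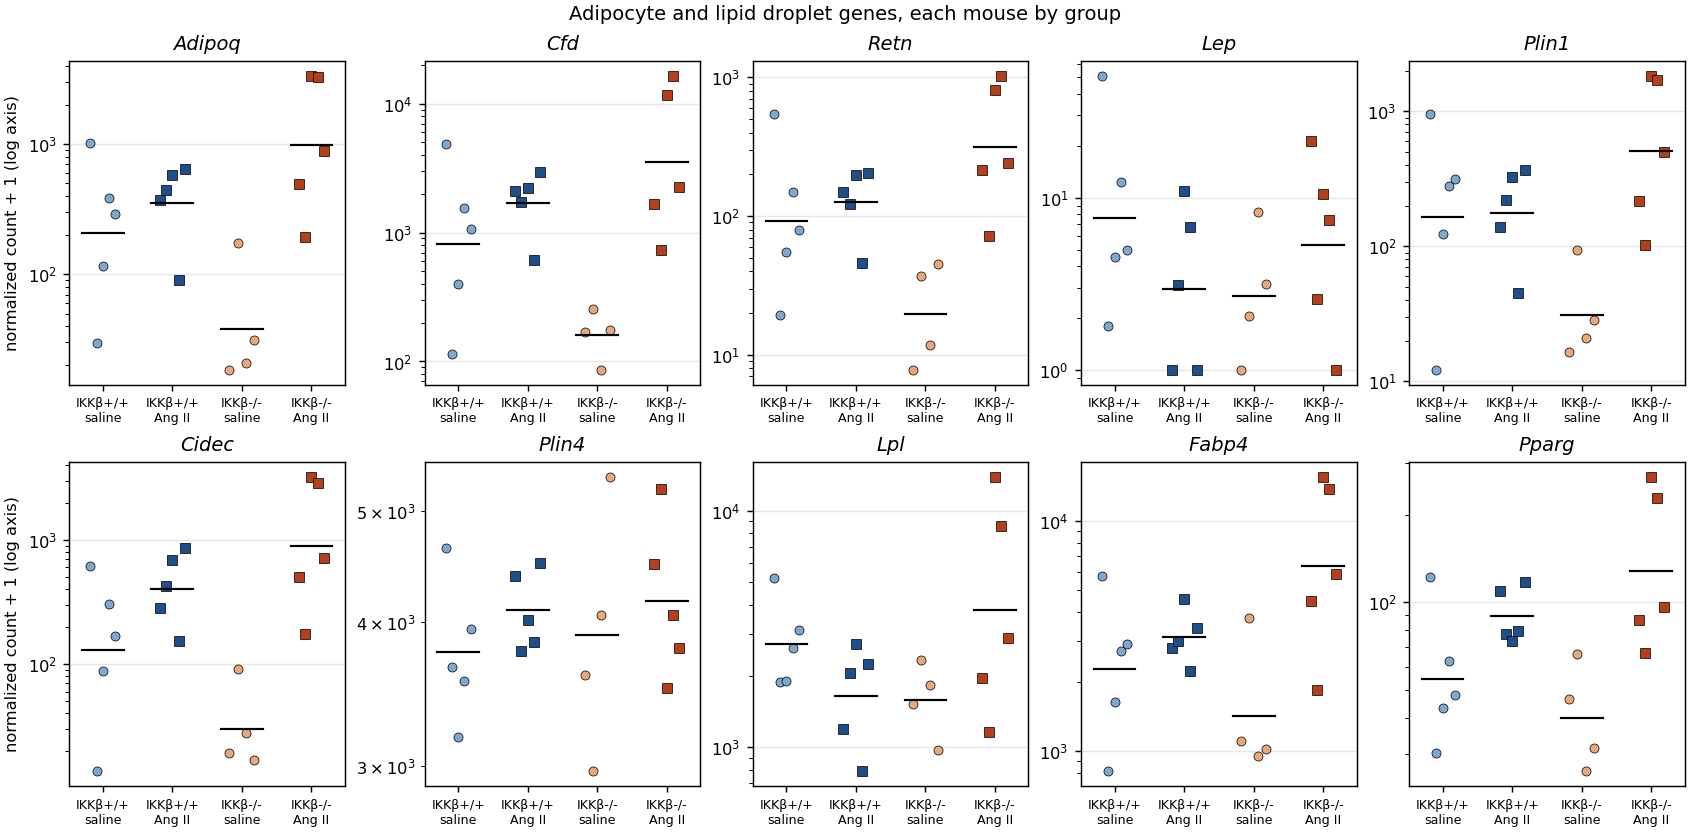
Normalized count plus 1 (log axis, each panel with its own range) of the 10 genes in each of the 19 mice; points are mice and the black line is the geometric mean of a group. Apart from Lep and Plin4, the mean is lowest in saline-infused IKKβ-/- mice and the highest mice are X2384 and X2385 (IKKβ-/-, Ang II), although single IKKβ+/+ mice are the lowest for Cidec, Plin1, Fabp4 and Lpl. Plin4 lies between 2967 and 5354 in all mice.

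The adipokine Adipoq encodes adiponectin, a hormone made by adipocytes. In IKKβ+/+ mice its normalized count was 1012, 28.6, 115, 385 and 288 with saline and 371, 446, 574, 89.8 and 648 with Ang II. IKKβ-/- mice had 17.4, 173, 19.8 and 30.5 with saline and 489.8, 194, 3350.4, 3298 and 888 with Ang II. The groups overlapped in IKKβ+/+ mice and were apart in IKKβ-/- mice, where the lowest Ang II-treated mouse (X2383, 194) was just above the highest saline-infused mouse (X2403, 173). Group means were 365 ± 387 and 426 ± 217 with saline and Ang II in IKKβ+/+ mice, and 60.1 ± 75.3 and 1644 ± 1554 in IKKβ-/- mice (SD). In bulk tissue, more adipocytes and more RNA per adipocyte cannot be told apart.

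Among the lipid droplet genes, Cidec encodes the protein that enlarges droplets by lipid transfer between them. Its normalized count in IKKβ+/+ mice was 612, 12.7, 86.4, 306 and 167 with saline and 281, 425, 694, 152 and 857 with Ang II. The counts in IKKβ-/- mice were 18.3, 89.5, 27 and 16 with saline and 497, 173, 3219, 2889 and 713 with Ang II. As for Adipoq, X2384 and X2385 were highest, and in IKKβ-/- mice the groups did not overlap.

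Plin1 encodes perilipin 1, the main droplet coat protein of adipocytes, which controls access of lipases to stored fat. IKKβ+/+ mice had 961, 11.1, 122, 277 and 313 normalized counts of Plin1 with saline and 137, 221, 328, 43.9 and 366 with Ang II. IKKβ-/- mice had 15.4, 92.7, 19.8 and 27.6 with saline and 214, 101, 1834, 1700.5 and 503 with Ang II. Again the groups overlapped in IKKβ+/+ mice and not in IKKβ-/- mice, where 101 in X2383 and 92.7 in X2403 were the nearest values.

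Plin4, a perilipin of small and nascent droplets, did not follow these genes. Its normalized count was 4639, 3659, 3180.0, 3553 and 3945 with saline and 4385, 3777, 4021, 3848 and 4507 with Ang II in IKKβ+/+ mice. Those of IKKβ-/- mice were 3595, 2967, 4063 and 5354 with saline and 4492, 5223, 3508, 4054 and 3797 with Ang II. The groups overlapped in both genotypes, and X2384 and X2385 lay inside the range of the other mice.

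The secreted proteins Cfd (complement factor D, or adipsin) and Retn (resistin) had the pattern of Adipoq. In saline-infused IKKβ-/- mice Cfd ranged from 84.7 to 255 normalized counts, and in Ang II-treated IKKβ-/- mice it was 1669, 725, 11730.0, 16457 and 2269. For Retn the corresponding values were 6.76 to 44.3 and 213, 71.4, 808, 1024 and 242. Neither gene overlapped between these groups. In IKKβ+/+ mice Cfd was at 1609 ± 1927 with saline and 1924 ± 864 with Ang II, and Retn at 168 ± 215 and 143 ± 64.4, with overlapping groups. Lep, which encodes leptin, was near the limit of detection: 9 of 19 mice had at most 3 reads, the highest had 75 reads, and the normalized counts ranged from 0 to 49.9. Its group means were 13.9 ± 20.5 and 3.55 ± 4.24 with saline and Ang II in IKKβ+/+ mice and 2.61 ± 3.19 and 7.57 ± 8.08 in IKKβ-/- mice, and all groups overlapped.

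For Lpl, the lipase that releases fatty acids from circulating triglyceride, the normalized count in IKKβ+/+ mice was 5159.6, 1871, 1905, 2609 and 3106 with saline and 1189, 2048, 2713, 786 and 2230.5 with Ang II. The IKKβ-/- mice had 1513, 2327, 1819.6 and 966 with saline and 1945, 1148, 13891, 8578 and 2899.7 with Ang II. X2384 and X2385 again stood above the others, but the groups overlapped in both genotypes. Fabp4, the fatty acid binding protein of adipocytes, was at 1104, 3761, 946 and 1014 normalized counts in saline-infused and at 4488, 1829, 15509, 13784 and 5878 in Ang II-treated IKKβ-/- mice. These groups overlapped through X2403 (3761) and X2383 (1829). Pparg was at 45.4, 65.3, 25.2 and 30.5 normalized counts in saline-infused and at 85.9, 65.9, 268, 226 and 95.1 in Ang II-treated IKKβ-/- mice, and these groups did not overlap, although 65.3 in X2403 and 65.9 in X2383 nearly met. In IKKβ+/+ mice Fabp4 was at 2759.6 ± 1869 with saline and 3203 ± 878 with Ang II, and Pparg at 60.3 ± 35.9 and 90.4 ± 20.2, with overlapping groups.

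Without Plin4, the 9 other genes together took between 0.0144% and 0.333% of the reads on genes in a library. The largest share was that of X2384 (0.333%, 95% Wilson interval 0.330 to 0.336), followed by X2385 (0.253%, 0.250 to 0.256). Median shares were 0.0604% and 0.0548% in IKKβ+/+ mice with saline and Ang II, and 0.0179% and 0.0850% in IKKβ-/- mice. The intervals cover counting error only. Plin4 alone made up between 6.48% and 69.9% of the reads of the 10 genes in a library, and was left out of this sum for that reason. Lpl and Fabp4, also known outside fat, stayed in the sum and weigh most where the share is small. In X2406, the lowest, they had 1010 and 525 of the 1643 reads, and in X2384 13147 and 14679 of 47910. The range of the share is therefore narrower than that of Adipoq, Cfd or Cidec.

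The effect of Ang II at 24 h was compared within each genotype with limma on log2(normalized count + 1), with all 4 groups in 1 fit. A gene was counted as changed where the adjusted p was below 0.1 and the change exceeded 1.2-fold, the thresholds of the study. Of the 9 genes, 7 rose in IKKβ-/- mice with Ang II and none fell. Over all genes tested 5.29% passed in this comparison and 2.59% passed as higher. The 7 genes move together from mouse to mouse, so counts of these genes, here and below, are not counts of separate observations. Cidec rose by 4.89 ± 0.93 on the log2 scale (SE, 95% interval 2.95 to 6.83, 29.7-fold, adjusted p = 0.00911) and Adipoq by 4.70 ± 0.95 (2.72 to 6.68, 26.0-fold, adjusted p = 0.0129). Cfd rose by 4.46 ± 0.90 (adjusted p = 0.0132), Plin1 by 4.04 ± 1.02 (0.0355), Retn by 3.997 ± 0.83 (0.0150), Fabp4 by 2.17 ± 0.57 (0.0433) and Pparg by 1.68 ± 0.42 (0.0319). Lpl did not pass, at a log2 fold change of 1.26 ± 0.55 (0.10 to 2.42, adjusted p = 0.239), nor did Plin4, at 0.10 ± 0.15 (-0.21 to 0.41, adjusted p = 0.794). For 6 genes (Adipoq, Cidec, Plin1, Cfd, Retn and Pparg) all Ang II-treated mice were above all saline-infused mice, which was the case for 2.41% of all genes tested.

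This count rested on few libraries. Without both X2384 and X2385, an alternative chosen after seeing the data, only Cidec passed (adjusted p = 0.0828), and Adipoq, Cidec, Plin1, Cfd and Retn had log2 fold changes between 2.85 and 3.71. Without the saline-infused mouse X2406, 4 genes passed. Shares of all genes that passed without these mice are not given here, so these counts cannot be set against a background.

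None of the 9 genes passed with Ang II in IKKβ+/+ mice, also at an unadjusted p under 0.05 or by edgeR or DESeq2. Of all genes tested 8.66% passed (9.25% by edgeR and 12.7% by DESeq2). Log2 fold changes with Ang II were 0.77 ± 0.89 for Adipoq (95% interval -1.09 to 2.64, adjusted p = 0.678), 1.63 ± 0.88 for Cidec (-0.19 to 3.46, adjusted p = 0.307) and 0.08 ± 0.96 for Plin1 (-1.92 to 2.08, 0.974). They were 0.12 ± 0.14 for Plin4 (-0.17 to 0.42, 0.677) and -0.74 ± 0.52 for Lpl (-1.83 to 0.35, 0.453), and between 0.46 and 1.06 for Cfd, Retn, Fabp4 and Pparg. These intervals do not exclude changes of several fold for Adipoq, Cidec and Plin1.

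The difference of the Ang II effect between genotypes, the interaction term of the same fit, passed for none of the 9 genes and for 0% of all genes tested. It was 3.92 ± 1.304 for Adipoq on the log2 scale (95% interval 1.204 to 6.65, adjusted p = 0.298), 3.54 ± 1.15 for Retn (0.288), 3.96 ± 1.40 for Plin1 (0.329), 3.40 ± 1.24 for Cfd (0.340), 3.26 ± 1.28 for Cidec (0.368), 1.997 ± 0.76 for Lpl (0.361) and -0.03 ± 0.21 for Plin4 (0.971). At an unadjusted p under 0.05, 7 of the 9 genes differed, against 11.1% of all genes tested. With edgeR 0 and with DESeq2 5 of the 9 genes passed, against 0.0202% and 1.88% of all genes.

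Averaged over genotypes, the Ang II effect passed for 7 of the 9 genes, all higher, against 12.7% of all genes tested in either direction and 5.66% as higher. Cidec rose by 3.26 (adjusted p = 0.00341), Cfd by 2.76 (0.00921), Adipoq by 2.74 (0.0129), Retn by 2.23 (0.0194), Plin1 by 2.06 (0.0700), Fabp4 by 1.31 (0.0399) and Pparg by 1.199 (0.0129) on the log2 scale. Lpl was at 0.26 (0.719) and Plin4 at 0.11 (0.552). The call of Plin1 was lost in 7 of 26 settings (adjusted p 0.0308 to 0.214), among them leaving out any 1 of X2359, X2373, X2384, X2385, X2401 and X2406. Without both X2384 and X2385, 5 genes passed, and Fabp4 was lost as well. The share of all genes that passed without these mice is not given here. This average holds the same mice as the comparisons within each genotype.

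**Figure D2:**
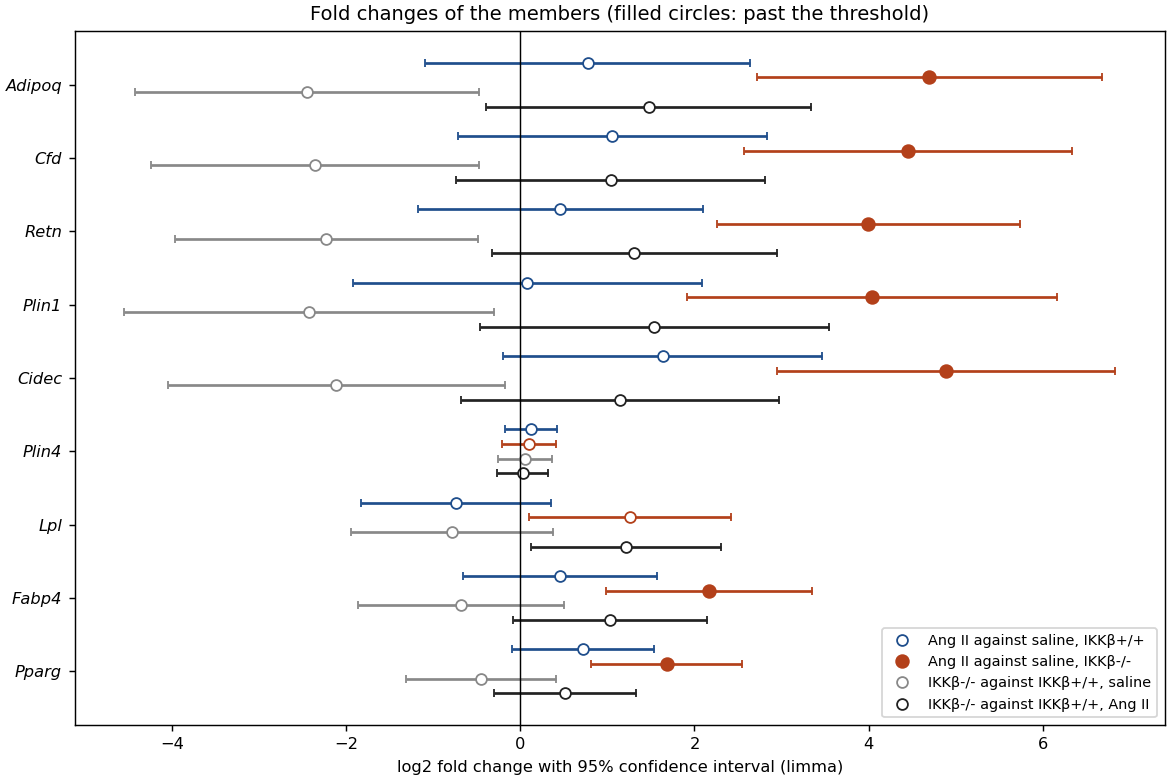
Log2 fold change with 95% interval of the 9 tested genes in 4 comparisons; filled points passed the threshold. In IKKβ-/- mice 7 genes lie above 0 and passed with Ang II, whereas no gene passed in the other comparisons shown.

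Genotypes were compared at each treatment. With saline none of the 9 genes passed, against 5.47% of all genes tested. Retn was at a log2 difference of -2.23 ± 0.83 (IKKβ-/- minus IKKβ+/+, adjusted p = 0.149), Cfd at -2.36 ± 0.90 (0.157), Adipoq at -2.45 ± 0.95 (0.163), Plin1 at -2.42 ± 1.02 (0.198) and Cidec at -2.11 ± 0.93 (0.217). These 5 genes had an unadjusted p under 0.05, as had 19.2% of all genes tested. Lpl, Fabp4, Pparg and Plin4 lay between -0.79 and 0.05. DESeq2 passed 5 and edgeR 1 of the 9 genes, against 9.68% and 5.62% of all genes. The saline-infused IKKβ-/- mice enter both this comparison and that of Ang II in IKKβ-/- mice, so low values in these 4 libraries move both.

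With Ang II, none of the 9 genes passed between genotypes, against 0.128% of all genes tested. Lpl was 1.21 ± 0.52 higher on the log2 scale in IKKβ-/- mice (95% interval 0.12 to 2.30, adjusted p = 0.303, unadjusted p = 0.0312 by limma) and was the only one of the 9 at an unadjusted p under 0.05. DESeq2 passed Lpl alone (3.51% of all genes), and edgeR passed 0 genes of the 9 (0.108% of all genes). Adipoq was at 1.48 ± 0.89 (0.460), Cidec at 1.14 ± 0.88 (0.563), Plin1 at 1.54 ± 0.96 (0.473) and Plin4 at 0.03 ± 0.14 (0.947). Averaged over treatments, the genotype passed for 0 of the 9 genes, against 7.24% of all genes tested, and no member had an unadjusted p under 0.05 or passed by edgeR (7.54% of all genes) or DESeq2 (10.6%).

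The genes were then compared from mouse to mouse. Over the 19 mice, log2 levels of Cidec, Plin1, Cfd, Retn and Fabp4 followed that of Adipoq with Pearson's r between 0.953 and 0.976 and Spearman's rho between 0.926 and 0.977. Each of these 5 relations had a permutation p of 1e-05, the smallest that the permutations can give (100000, two-sided, 9 relations). For deviations from the group means, which remove the differences between groups, r was 0.976 for Plin1, 0.966 for Cidec, 0.954 for Fabp4, 0.937 for Cfd and 0.925 for Retn, with rho between 0.912 and 0.975. Adjusted permutation p-values were 2.25e-05 for Plin1, Cidec, Fabp4 and Cfd and 4.5e-05 for Retn. Without X2401 and X2406, the mice farthest from the median of Adipoq, the r that still holds the differences between groups stayed between 0.95 and 0.976. Pparg (r = 0.905, rho = 0.872, within groups r = 0.848, adjusted permutation p = 0.000219) and Lpl (r = 0.738, rho = 0.783, within groups r = 0.820, adjusted permutation p = 4.5e-05) followed less closely.

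Plin4 showed no such relation (r = 0.0156, rho = 0.123, permutation p = 0.949, within groups r = -0.190, permutation p = 0.489), and neither did Lep (r = 0.322, rho = 0.324, permutation p = 0.178, within groups r = 0.331, permutation p = 0.223). All points share libraries and their depth, and few reads limit Lep. Among Adipoq, Cidec, Plin1, Cfd, Retn and Fabp4, the 15 pairs had within-group r between 0.862 and 0.976.

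**Figure D3:**
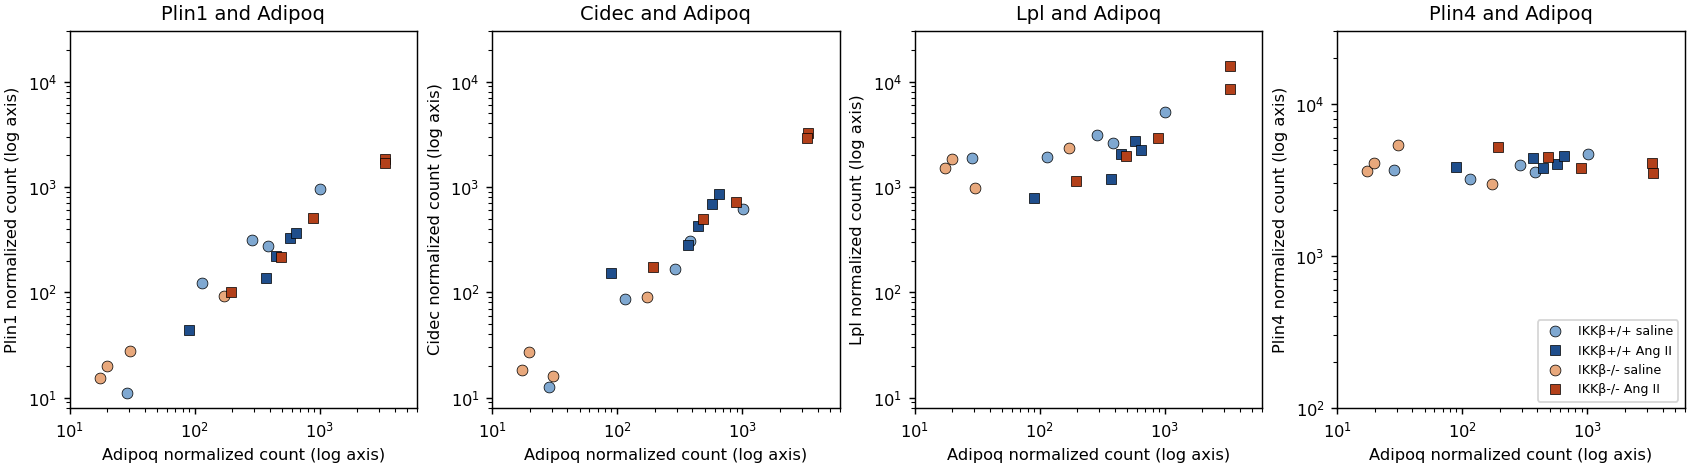
Normalized counts of Plin1, Cidec, Lpl and Plin4 against that of Adipoq in the 19 mice, both axes on log scales; each point is a mouse, coloured by group. Plin1 and Cidec rise with Adipoq over the whole range, Lpl is highest where Adipoq is highest, and Plin4 is flat.

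Genes most like Adipoq were named as the 10 genes outside the list with the highest within-group r over the 19 mice: Car3 (0.965), Slc36a2 (0.948), Acsm3 (0.933), Trarg1 (0.932), Pck1 (0.925), Ces1f (0.924), Cyp2e1 (0.920), Pcx (0.919), Orm1 (0.914) and Adtrp (0.908). Reads of Ces1f and Orm1 are uncertain, since both belong to families of near-identical genes. Ranked among all genes tested, Plin1 was the most like Adipoq, followed by Cidec, with Fabp4 at rank 4, Cfd at 6, Retn at 9, Pparg at 41, Lpl at 51 and Plin4 at 10908. The smooth muscle genes Myh11 and Acta2 had r of -0.487 and -0.561 with Adipoq.

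For Plin4 and Lpl the genes most alike were looked up after their values were seen. Plin4 was closest to Rgma (within-group r = 0.896), Slc25a23 (0.871) and Acot11 (0.865). The smooth muscle genes Smtn (0.805, rank 11) and Myh11 (0.746, rank 43) were also high in this order, Acta2 was not (0.304, rank 2620), and the endothelial gene Pecam1 was at -0.527. Lpl was closest to Cebpa (0.973), which encodes an adipocyte transcription factor, Plaat3 (0.960), Car5b (0.952) and Mgst1 (0.944), with Lipe, the hormone-sensitive lipase, at 0.925 and Myh11 at -0.785. These correlations across 19 mice are descriptions.

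The balance between members was examined as ratios of normalized counts to Adipoq. Plin1 per Adipoq in IKKβ+/+ mice was 0.95, 0.389, 1.07, 0.721 and 1.09 with saline and 0.370, 0.495, 0.572, 0.489 and 0.564 with Ang II. For IKKβ-/- mice it was 0.889, 0.537, 1.0 and 0.905 with saline and 0.438, 0.520, 0.547, 0.516 and 0.566 with Ang II. All but X2372 and X2403 of the saline-infused mice were above all Ang II-treated mice. Counting error limits these ratios where reads were few. Plin1 and Adipoq had 11 and 11 reads in X2406 and 16 and 18 in X2401. They had 38 and 42 reads in X2409 and 14 and 36 in X2372. Cidec per Adipoq was 0.605, 0.444, 0.754, 0.795 and 0.582 with saline and 0.757, 0.952, 1.21, 1.69 and 1.32 with Ang II in IKKβ+/+ mice, so that 1 mouse of each group overlapped. The same ratio in IKKβ-/- mice ranged from 0.518 to 1.36 with saline and from 0.803 to 1.01 with Ang II. Lpl per Adipoq ranged from 5.10 to 65.4 with saline and 3.21 to 8.76 with Ang II in IKKβ+/+ mice. The range of Lpl per Adipoq in IKKβ-/- mice was 13.5 to 91.8 with saline and 2.60 to 5.93 with Ang II, without overlap. Adipoq, the denominator, itself did not overlap between these groups, whereas Lpl did. The separation of this ratio is therefore not a result apart from that of Adipoq.

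**Figure D4:**
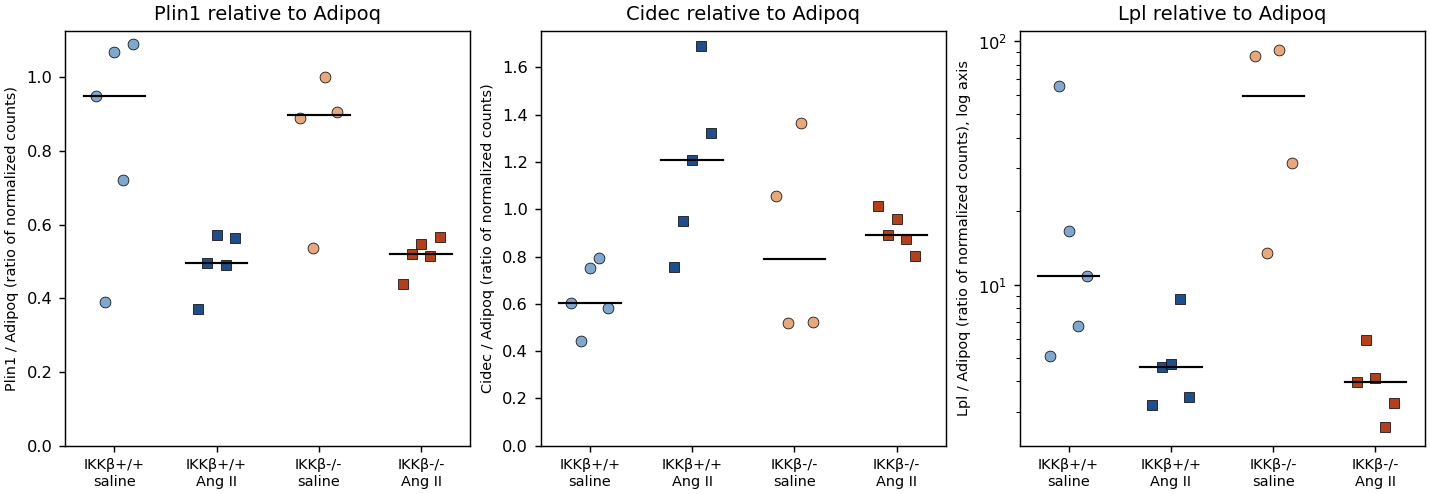
Ratio of the normalized count of Plin1, Cidec and Lpl to that of Adipoq in each mouse (Lpl on a log axis); points are mice and the line is the group median. Plin1 per Adipoq lies between 0.370 and 0.572 in all Ang II-treated mice, and reaches 1.09 with saline.

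The same balance was tested in a limma fit over all genes with the log2 level of Adipoq in the mouse as a covariate. In IKKβ+/+ mice 3 of the 8 other tested genes passed, against 9.53% of all genes. At equal Adipoq, Cidec was higher with Ang II by 0.90 ± 0.25 on the log2 scale (adjusted p = 0.0430), Plin1 fell by 0.73 ± 0.23 (adjusted p = 0.0758) and Lpl fell by 1.11 ± 0.32 (adjusted p = 0.0470). None of the 8 passed in IKKβ-/- mice, and 0.0135% of all genes did. There Plin1 was at -0.88 (adjusted p = 0.480), Lpl at -0.99 (0.567) and Cidec at 0.45 (0.762), and Adipoq itself did not overlap between the groups, so that treatment and covariate can hardly be separated. Averaged over genotypes, Plin1 fell by 0.80 (adjusted p = 0.0635) and Lpl by 1.05 (0.0714), against 5.98% of all genes. The average includes the IKKβ-/- comparison and shares its limit. With Cfd as the covariate the averaged values were -0.86 for Plin1, which did not pass (adjusted p = 0.232), and -1.10 for Lpl (0.0926). The averaged genotype comparison passed for 1 of the 8, Fabp4, which was 0.45 ± 0.13 higher in IKKβ-/- mice (adjusted p = 0.0561). Of all genes 9.21% passed, so 1 of 8 is near that share. Without the covariate Fabp4 was at 0.17 (adjusted p = 0.827 by limma). With Cfd in place of Adipoq, the IKKβ+/+ values were 0.62 for Cidec (adjusted p = 0.315), -1.04 for Plin1 (0.0992) and -1.26 for Lpl (0.0369). Leaving out 1 mouse ended the call of Cidec without X2358 (0.75, adjusted p = 0.179), of Lpl without X2350 or X2358, and of Plin1 without any 1 of 7 mice. Over 20 settings of this fit the adjusted p ranged from 0.0279 to 0.179 for Cidec, 0.0309 to 0.146 for Lpl, 0.0155 to 0.201 for Plin1 and 0.0262 to 0.119 for Fabp4, which was lost in 4 of them.

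Other genes of white fat were counted from a list. Of 30 other white adipocyte genes, 15 rose and 0 fell with Ang II in IKKβ-/- mice. Of all genes tested 2.59% passed as higher and 5.29% in either direction. The median log2 fold change of the 30 genes was 1.69, against -0.0029 over all genes. Pck1, which supplies glycerol for triglyceride synthesis, ranged from 3.63 to 205 normalized counts with saline and from 99.2 to 5490 with Ang II in these mice, and rose by 5.73 ± 1.18 on the log2 scale (adjusted p = 0.0144). Acvr1c, an activin receptor, rose by 4.27 ± 1.12 (0.0439), Car3, an abundant carbonic anhydrase of fat, by 4.26 ± 0.99 (0.0243), Adrb3, the adrenergic receptor of adipocytes, by 3.90 ± 1.04 (0.0471) and Lipe by 2.20 ± 0.52 (0.0267). The count rested on the same libraries as that of the members: without X2384 and X2385 together 0 of the 30 passed, and without either alone 7 and 8. It was 18 by DESeq2 and 16 by edgeR, whose shares over all genes in this comparison are not given here. In IKKβ+/+ mice 0 of the 30 passed by limma, edgeR or DESeq2, against 8.66%, 9.25% and 12.7% of all genes. There 1 of the 30 had an unadjusted p under 0.05, and the median was 0.0049. Between genotypes with saline (IKKβ-/- minus IKKβ+/+), the median of the 30 was -1.14 and 6 were above 0. Of them 1 passed as higher and 2 as lower, against 5.47% of all genes, and 14 had an unadjusted p under 0.05, against 19.2%. With Ang II, 0 of the 30 passed between genotypes, against 0.128% of all genes, with a median of 0.84 and 26 above 0.

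Of 6 tested genes from a list of other droplet coat and assembly genes, 2 rose with Ang II in IKKβ-/- mice (median 0.32). Of all genes tested 2.59% passed as higher. Fitm2, which encodes an endoplasmic reticulum protein of droplet formation, ranged from 224 to 351 normalized counts with saline and from 409 to 642 with Ang II, without overlap, and rose by 0.94 ± 0.14 on the log2 scale (adjusted p = 0.0022). In IKKβ+/+ mice Fitm2 was at 326 ± 27.9 with saline and 382 ± 9.97 with Ang II. Plin5, a perilipin of oxidative tissues, also passed (adjusted p = 0.0232), but had at most 3 reads in each saline-infused IKKβ-/- mouse, so no fold is given. Its normalized count was 3.17 to 60.2 in Ang II-treated IKKβ-/- mice. Plin2, the perilipin found in most cells, did not pass at 0.35 (adjusted p = 0.3505). In IKKβ+/+ mice 0 of the 6 genes passed by limma, edgeR or DESeq2, and 0 had an unadjusted p under 0.05.

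**Figure D5:**
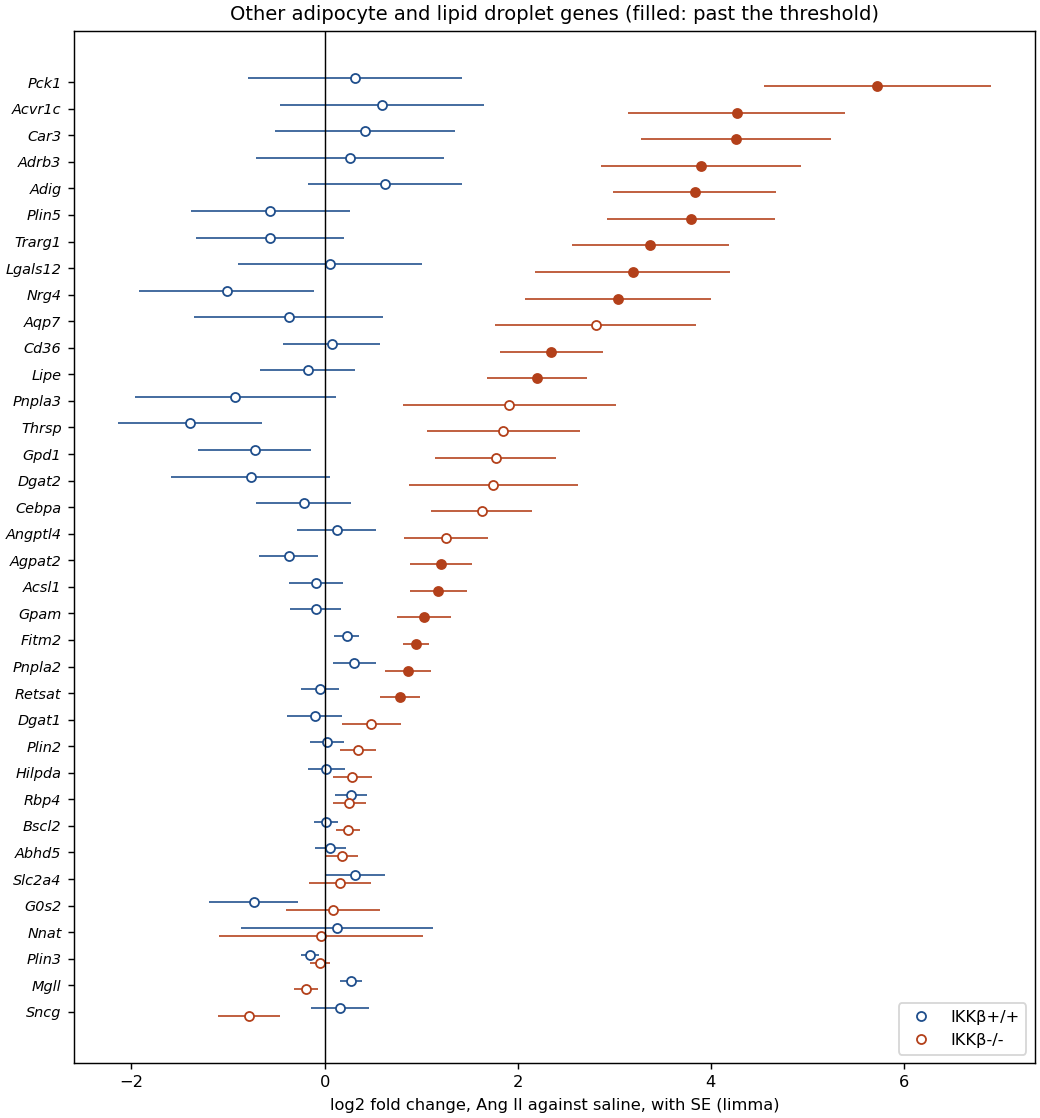
Log2 fold change with Ang II (± SE) of the 36 tested genes of the 2 lists in IKKβ+/+ and IKKβ-/- mice; filled points passed the threshold. Genes that passed do so in IKKβ-/- mice, and 27 of the 30 adipocyte genes have values above 0 there, against 15 in IKKβ+/+ mice.

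Markers of other cells were measured beside these genes, and their part in the results was not tested. Of 10 tested brown and beige fat genes, 7 had log2 fold changes above 0 with Ang II in IKKβ-/- mice (median 0.86) and 6 had an unadjusted p under 0.05, but 0 passed as higher and 2 fell. DESeq2 passed 3 as higher and 2 as lower, edgeR 0 and 1, and limma 0 in either direction without X2384 and X2385. Those that fell by limma were Fabp3, a fatty acid carrier of muscle and brown fat, by 1.09 (adjusted p = 0.0355) and Prdm16, a regulator of brown fat, by 0.63 (0.0818). Ucp1, the uncoupling protein of brown fat, was at 2.91 ± 1.67 (0.380) and ranged from 0 to 1156 normalized counts over all mice. In this comparison 0 of 7 smooth muscle, 0 of 7 macrophage, 0 of 7 adipose progenitor and 0 of 5 fibroblast genes passed, with 1 gene at an unadjusted p under 0.05 (a progenitor gene) and 0 by edgeR or DESeq2. Their defining markers were at -0.22 (Myh11, adjusted p = 0.728), 0.21 (Adgre1, 0.771), 0.33 (Pdgfra, 0.775) and 0.18 (Dcn, 0.839). Log2 fold changes were above 0 for 1 of 7 smooth muscle, 6 of 7 macrophage, 6 of 7 progenitor and 3 of 5 fibroblast genes. Over all genes tested 5.29% passed in this comparison. Of 7 endothelial genes Kdr passed at 1.79 (0.0990), and Pecam1 was at -0.36 (0.564). Of the 7, 3 had an unadjusted p under 0.05, DESeq2 passed 3 and edgeR 1 as higher, and limma 0 without X2384 and X2385. Sums over lists overlapped between saline-infused and Ang II-treated IKKβ-/- mice, at 433471 to 591014 against 309043 to 552589 normalized counts for smooth muscle, 11737 to 25992 against 6980 to 24553 for endothelial, and 3886 to 5267 against 2643 to 10851 for macrophage genes. Between genotypes with saline (IKKβ-/- minus IKKβ+/+), 7 of 7 smooth muscle genes had log2 differences above 0 (median 0.34). Above 0 were 0 of 7 endothelial (median -0.93), 0 of 7 macrophage (-0.79), 0 of 7 progenitor (-0.67) and 0 of 5 fibroblast genes (-0.31). Of these lists only 2 macrophage genes passed, both lower, against 5.47% of all genes tested.

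Of the remaining lists, nerve (4 tested), skeletal and heart muscle (5), lymphocyte (2), adrenal cortex (1) and erythrocyte (3) genes had 0 that passed in this comparison. Among these 1 muscle gene had an unadjusted p under 0.05, DESeq2 passed 1 nerve gene and edgeR 0. No mesothelial gene was tested, and no kidney gene of the list was in the table. The liver gene Alb, which encodes albumin, moved opposite to the adipocyte genes: it was at 30.6 to 307 normalized counts in saline-infused and 0 to 6.35 in Ang II-treated IKKβ-/- mice (log2 fold change -5.32 ± 0.87, adjusted p = 0.00368). In IKKβ+/+ mice Alb was at 13.3 ± 11.8 with saline and 19.7 ± 17.8 with Ang II. The saline-infused IKKβ-/- mice, lowest in Adipoq, Cidec and Plin1 by group mean, had the highest mean of Alb, and the part of this in the results was not tested.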

How the data were processed

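Poly(A) RNA of the SRA was sequenced from 19 mice in 4 groups, assigned from the labels. Per the labels and methods, the authors used Trimmomatic 0.35 for trimming and STAR 2.7.1a for alignment to GRCm38, took read counts of Gencode M25 genes from STAR and normalized them with DESeq2 1.30.1, while RSEM gave TPM values, which were not used here. The deposited signal values are these normalized counts. All values (100%) were whole multiples of 1 read within a tolerance of 0.02, from which reads were recovered. No 2 libraries of a group agreed within sampling noise (36 pairs).

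Genes reaching 10 normalized counts in 4 or more mice were tested, and 5563 were left out. Values were compared as log2(value + 1), which pulls the fold change of low genes toward 0, in R 4.3.3 with limma 3.58.1 (lmFit, eBayes with a trend), two-sided, with Benjamini-Hochberg adjustment over the 14845 genes, in 7 comparisons. With few reads a gene is limited by counting: groups with at most 3 reads per mouse were taken as at the floor. Correlations were tested by permutation in Python 3.11.15. Transcript lengths came from a Gencode annotation of GRCm38, and upstream windows from RefSeq. The libraries were stranded per the methods. The scripts were tested on simulated data.

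The members and gene lists were chosen with earlier results of these data known. All members are named. Of each list the text names the first marker and up to 4 passing genes of largest change. Alternatives were a pseudocount of 4, no filter, stricter thresholds, other normalizations, mouse weights, edgeR 4.0.16, DESeq2 1.42.0 on the recovered reads, and leaving out each mouse. Removal of X2384 and X2385 together, Cfd as a covariate and the alternatives of the covariate fits and of the lists were added after seeing the data.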

Additional observations from a re-analysis of the deposited data

Results flagged for a closer look

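The values of 1 mouse stood apart from the rest of its group for 6 of the 40 groups of 4 or 5 mice examined (Dixon's criterion at 95%). All 6 were the highest of their group. The criterion was applied to untransformed counts, whose SD was near or above the mean in several groups. Its rate of about 1 in 20 holds for normally distributed values, so the 6 cannot be set against it. Of the saline-infused IKKβ-/- mice, X2403 was the highest for Adipoq at 173 normalized counts, for Cidec at 89.5, for Plin1 at 92.7 and for Fabp4 at 3761. Of the saline-infused IKKβ+/+ mice, X2370 was the highest for Lep at 49.9 and for Retn at 542. The genes move together from mouse to mouse, so these are not 6 separate observations. Without X2403, 7 of the 9 tested members rose with Ang II in IKKβ-/- mice. The share of all genes that passed without X2403 is not given here.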

How the results depend on the processing

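Without covariates, 1674 values of single members were compared with those reported: 1629 kept their side of the threshold, 23 lost and 22 gained a call. The sign changed in 42, each called in neither fit. With Ang II in IKKβ-/- mice, the number of the 9 genes that passed ranged from 4 (without X2406) to 8 when 1 mouse was left out, and was 1 (Cidec) without X2384 and X2385. Cidec passed under all 27 settings (log2 3.71 to 5.48), Fabp4 failed in 6, Plin1 and Pparg in 3 each, and Adipoq (3.53 to 5.43), Cfd and Retn in 1 each. For IKKβ-/- against IKKβ+/+ mice with saline the count was 0 as reported, 2 with mouse weights, 1 with edgeR, 5 with DESeq2 and 0 to 5 with 1 mouse left out (5 without X2372, 1 without X2409). DESeq2 gave 1 with Ang II between genotypes and 5 for the difference of the Ang II effect. Shares of all genes with mice left out or weighted are not given here, so those counts cannot be set against a background. The cause of these changes in count was not tested.

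With Adipoq as a covariate 25 of 56 values changed sign and with Cfd 24, of which 6 and 8 were called in either fit. Among those called in either fit, with Adipoq, Plin1 was at -0.73 (IKKβ+/+), -0.88 (IKKβ-/-) and -0.80 (averaged), Fabp4 at -0.51 (IKKβ-/-) and -0.25 (averaged) and Lpl at -1.05 (averaged). With Cfd, Plin1 was at -1.04, -0.68 and -0.86, Pparg at -0.074 (IKKβ-/-), Fabp4 at -0.36 (IKKβ-/-) and -0.25 (averaged), Retn at -0.12 (averaged) and Lpl at -1.10 (averaged). These are differences at equal level of the covariate gene. In IKKβ-/- mice, and so in the averages, treatment and covariate can hardly be separated. No paired analysis was possible because the replicate numbers are mouse numbers that no 2 groups share. Few reads limit Lep and Plin5, and the ratios to Adipoq in X2372, X2401, X2406 and X2409.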
